A study of Mus musculus with 6 samples.

Results

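The 10 liver genes described here, grouped as dependent on the pulses of growth hormone, were measured with 14 probe sets. The array had 12422 probe sets and 8251 genes. That dependence was not tested here for any of them. They are *Hsd3b5*, *Cyp7b1*, *Serpina12*, *Cyp4a12b*, *Cyp2d9*, *Elovl3*, *Mup3*, *Car3*, *Egfr* and *Bcl6*, and every probe set that the platform annotation gives to 1 of these 10 symbols alone was kept. Liver RNA came from Liver Insulin Receptor Knockout (LIRKO) mice, of genotype IR flox/flox albumin:CRE +, and from their Flox littermates, of genotype IR flox/flox albumin:CRE -. All were males 2 to 3 months old on chow, not fasted, on a mixed genetic background. The floxed insulin receptor alleles were thus shared by both groups, and Cre driven by the albumin promoter, which is active in hepatocytes, was carried by LIRKO mice only. Each group had 3 Affymetrix mouse arrays, and because RNA of 2 to 3 mice was mixed for each, n counts pools and not animals. The values are log2 signals after robust multichip averaging (RMA), 1 per probe set and array, and the number of arrays limits their precision.

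In male rodents the pituitary releases growth hormone in separate pulses, and in females more evenly. Each pulse acts through the growth hormone receptor and the kinase JAK2 of hepatocytes on the transcription factor STAT5b, which moves to the nucleus and then leaves it before the next pulse. Many genes that male mouse liver expresses more strongly rely on this rhythm, whereas many female-biased genes are held down by it.

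*Insr*, the insulin receptor gene deleted in LIRKO hepatocytes, read 5.37, 5.99 and 6.06 on the LIRKO arrays and 5.45, 5.22 and 5.38 on the Flox arrays, a difference of 0.46 (adjusted p = 0.245 from limma). Its 1 probe set was thus not lower in LIRKO. Where its probes lie relative to the deleted part was not found in the labels or methods, so this dim signal does not check the labels. The 3 LIRKO arrays were not alike. On LIRKO 2 and LIRKO 3, the brightest of 10 equal bins of probe sets, made by mean Flox level, had a median difference of -1.09 and -0.89 from the Flox mean on the log2 scale, against -0.01 on LIRKO 1 and -0.03 to 0.03 on the Flox arrays. This bears on the genes described here, since 12 of their 14 probe sets lie in that brightest bin. Each difference of these 14 probe sets is therefore given for LIRKO 1, LIRKO 2 and LIRKO 3 apart. It is set against the median difference of all probe sets in the same bin by Flox level on the same array. Differences of other genes are as deposited unless a bin is named. The cause of the shift on LIRKO 2 and LIRKO 3 was not tested. Of 8 measured hepatocyte markers and 29 measured markers of 5 other liver cell types, none passed an adjusted p of 0.05 from limma, where 0.129% of all probe sets did. At an unadjusted p under 0.05 in limma, 2 hepatocyte markers were lower, beside 13.5% of all probe sets and 43.2% of the brightest bin, which holds 7 of the 8. Of the other markers 2 were higher, beside 7.43% of all probe sets. Relative to the median of its own bin 6 of 8 hepatocyte markers were higher, with a median of 0.18. The mean level of the hepatocyte markers was 11.68 to 12.68 on the LIRKO arrays and 12.58 to 12.68 on the Flox arrays. Kupffer cell markers averaged 7.06 to 8.11 on the LIRKO arrays and 7.285 to 7.996 on the Flox arrays, and endothelial markers 6.94 to 7.10 on LIRKO and 6.57 to 7.05 on Flox. Stellate cell markers averaged 6.64 to 7.69 on LIRKO and 6.64 to 6.86 on Flox, where 1 marker read 7.89, 11.14 and 10.64 on the LIRKO arrays. Bile duct markers averaged 5.18 to 5.51 on LIRKO and 5.29 to 5.40 on Flox, and lymphocyte markers 6.27 to 6.55 on LIRKO and 6.17 to 6.23 on Flox. Their part in the results below was not tested, and in whole liver fewer cells of a type and less RNA per cell cannot be told apart.

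The genes, and the lists further below, were chosen with earlier results of these data known, so their counts describe them and test nothing. All 14 probe sets had a lower mean on the LIRKO arrays than on the Flox arrays, as did 48.7% of all probe sets and 87.7% of the brightest bin. For 13 of them the highest LIRKO array lay below the lowest Flox array, as it did for 14.9% of all probe sets and for 34.4% of those in the brightest bin, where the members' count was 11 of 12. The median difference over the 14 was -1.26, against 0.01 over all probe sets, with -0.41 on LIRKO 1, -1.90 on LIRKO 2 and -1.49 on LIRKO 3 when the arrays were taken apart. In limma over all 12422 probe sets, with Benjamini-Hochberg adjustment, none of the 14 passed an adjusted p of 0.05, with adjusted p from 0.223 to 0.376, and 0.129% of all probe sets passed, 0.0564% as lower. At an unadjusted p under 0.05, 13 of 14 were lower, as were 13.5% of all probe sets, and in the brightest bin 11 of 12 were, beside 43.2%. These counts take the spread of both groups as equal. With unequal variances, 161345_f_at of *Cyp7b1*, *Serpina12*, *Cyp2d9* and *Elovl3* stayed under 0.05, beside 728 of all 12422 probe sets in either direction. The rest of the 14 did not, with unadjusted p in that test from 0.0524 for *Cyp4a12b* to 0.367 for 101840_at of *Egfr*. On LIRKO 1, the array without the shift in bright probe sets, 13 of 14 lay below all 3 Flox arrays, against 30.9% of all probe sets and 36.1% of the brightest bin. The same 13 were below the Flox mean there, against 54.4% of all probe sets and 52.7% of the brightest bin. After cyclic loess between arrays, which fits each array to the others along the range of levels, 13 of 14 were below 0 and 11 of 12 in the brightest bin, against 48.8% and 57.3%.

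**Figure D1:**
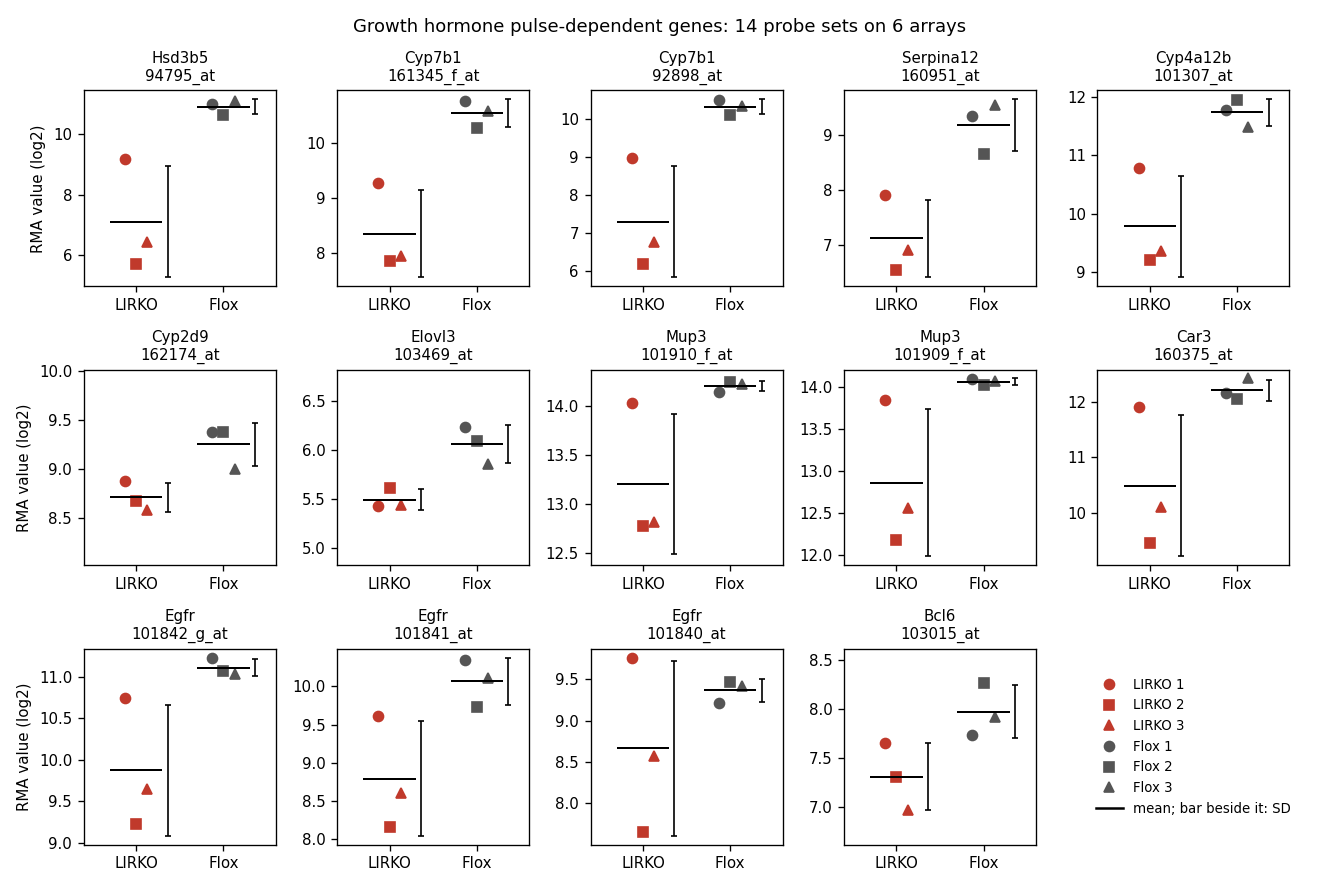
RMA value (log2, vertical axis, with its own range in each panel) of the 14 probe sets on the 3 LIRKO and 3 Flox arrays; lines are means and bars are SD (n = 3 each). In 13 panels the 3 LIRKO points lie below the 3 Flox points, and only probe set 101840_at of *Egfr* has LIRKO 1 above them.

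Among the enzymes of steroids and sterols, *Hsd3b5* had the lowest difference of all 14 probe sets. It encodes an enzyme of the 3β-hydroxysteroid dehydrogenase family that mouse liver makes mainly in males. Its probe set 94795_at read 9.17, 5.69 and 6.43 on LIRKO 1, LIRKO 2 and LIRKO 3, against 10.995, 10.63 and 11.09 on Flox 1, Flox 2 and Flox 3. The groups did not overlap, and the LIRKO arrays spread far more than the Flox arrays (SD 1.83 and 0.24, n = 3 each). LIRKO 1 lay 1.46 below the lowest Flox array, and LIRKO 2 and LIRKO 3 lay lower still. The mean difference was -3.80 (standard error 0.82, 95% interval -5.76 to -1.85), with an adjusted p of 0.237 from limma. By array it was -1.73, -5.21 and -4.47, and relative to the median of the brightest bin -1.72, -4.12 and -3.58. Of the 1243 probe sets in that bin, 2 had a lower mean difference and 10 a lower difference on LIRKO 1.

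*Cyp7b1*, which encodes the oxysterol 7α-hydroxylase of the acidic pathway of bile acid synthesis, was read by 2 probe sets that pointed the same way. On 92898_at it read 8.96, 6.17 and 6.76 on the LIRKO arrays and 10.50, 10.10 and 10.35 on the Flox arrays. On 161345_f_at it read 9.26, 7.86 and 7.94 on the LIRKO arrays and 10.75, 10.26 and 10.58 on the Flox arrays. Neither probe set had an overlap between the groups, and on both LIRKO 1 lay between Flox and the other 2 LIRKO arrays. The differences were -3.02 (standard error 0.66, adjusted p = 0.237 from limma) and -2.17 (standard error 0.38, adjusted p = 0.223 from limma). On LIRKO 1 the 2 probe sets were nearly equal, at -1.36 and -1.26, while on LIRKO 2 they stood at -4.15 and -2.67 and on LIRKO 3 at -3.56 and -2.59. Relative to the brightest bin 92898_at stood at -1.35, -3.06 and -2.67 and 161345_f_at at -1.25, -1.59 and -1.69 on LIRKO 1, LIRKO 2 and LIRKO 3. The suffix _f_at marks a probe set whose probes can match several members of a family. After cyclic loess 161345_f_at was the only one of the 14 that passed, at -1.70 (adjusted p = 0.0342 from limma), where 0.137% of all probe sets passed as lower.

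The other 2 cytochrome P450 genes differed in size. *Cyp4a12b*, a male-biased fatty acid ω-hydroxylase, read 10.78, 9.21 and 9.36 on the LIRKO arrays and 11.77, 11.94 and 11.49 on the Flox arrays. Its groups did not overlap, with a difference of -1.95 (standard error 0.41, adjusted p = 0.237 from limma). By array *Cyp4a12b* stood at -0.95, -2.53 and -2.37, and relative to the brightest bin at -0.94, -1.44 and -1.48. *Cyp2d9*, which encodes a testosterone 16α-hydroxylase, read 8.87, 8.67 and 8.58 on the LIRKO arrays and 9.37, 9.38 and 9.001 on the Flox arrays. Here too all LIRKO arrays lay below all Flox arrays, but by 0.13 at the closest pair, and the difference of -0.54 (standard error 0.15, adjusted p = 0.237 from limma) was the smallest in size of the 14. By array it was -0.38, -0.58 and -0.67. Relative to the brightest bin *Cyp2d9* stood at -0.36 on LIRKO 1 but at 0.51 and 0.22 on LIRKO 2 and LIRKO 3, and 722 of the 1243 probe sets of that bin had a lower mean difference. Its mean difference was the only one of the 14 above the median of its bin. But *Cyp2d9* lies near the lower edge of that bin, at Flox percentile 90.58, and the next dimmer bin had a median of -0.28. After cyclic loess *Cyp2d9* stood at -0.17 (adjusted p = 0.524 from limma).

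Several members have close relatives on the array, and 17 probe sets of 14 other genes of the *Hsd3b*, *Cyp2d*, *Cyp4a*, *Mup* and *Elovl* families were read by symbol. None passed in limma, where 0.129% of all probe sets did, and their differences ran from -1.46 to 2.53. At an unadjusted p under 0.05 in limma there were 5 of 17, beside 2602 of all 12422 probe sets. Of these *Hsd3b6*, *Hsd3b7* and *Mup5* were lower, as were 13.5% of all probe sets. *Cyp4a10* and *Cyp4a14* were higher, as were 7.43%. On LIRKO 1, 6 of the 17 lay below the Flox mean. *Hsd3b2*, *Hsd3b3* and *Hsd3b6* had differences of -0.32, -0.45 and -0.52, and on LIRKO 1 they were -0.13, 0.16 and -0.15. *Hsd3b7*, which acts in bile acid synthesis, had the largest negative difference of the 17, -1.46 (adjusted p = 0.237 from limma), with no overlap between the groups and -0.64 on LIRKO 1. *Hsd3b1* had differences of 0.20 and 0.16 on its 2 probe sets. *Cyp2d10* had LIRKO 1 above the Flox mean on both its probe sets, by 0.26 and 0.09, where *Cyp2d9* had it below, and *Cyp2d26* had it above by 0.14, with mean differences of -0.80 and -1.20 for *Cyp2d10* and -1.17 for *Cyp2d26*. *Cyp4a10* and *Cyp4a14*, which are induced through the nuclear receptor PPARα, had differences of 1.96 and 2.53 (adjusted p = 0.237 from limma for both), opposite in sign to *Cyp4a12b*. Their Flox arrays spread widely, at 7.25, 9.72 and 8.49 for *Cyp4a10* and 7.11, 10.48 and 8.30 for *Cyp4a14*. The lowest LIRKO array read 9.91 and 10.92. The elongases *Elovl1*, *Elovl2* and *Elovl5* had differences of 0.05, 0.40 and -0.94, and *Elovl6* had -0.13 and -0.03 on its 2 probe sets. Relatives in the brightest bin had smaller mean differences once set against its median. *Hsd3b7* stood at -0.81, *Cyp2d10* at -0.15 and -0.55, *Cyp2d26* at -0.52, *Elovl5* at -0.29 and *Mup5* at -0.06, where *Cyp2d9* stood at 0.11. How far probes of one family member read RNA of another was not tested, and a probe set annotated to *Cyp2d9* together with another gene was left out.

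Of the secreted proteins, *Serpina12*, which encodes the serpin vaspin, read 7.91, 6.54 and 6.92 on the LIRKO arrays and 9.36, 8.66 and 9.55 on the Flox arrays. The groups did not overlap, and Flox 2 was the lowest of its group. Its difference of -2.06 (standard error 0.39, 95% interval -2.99 to -1.14) had an adjusted p of 0.237 from limma. By array it was -1.28, -2.64 and -2.27. Relative to the brightest bin *Serpina12* stood at -1.26, -1.56 and -1.38 on LIRKO 1, LIRKO 2 and LIRKO 3. It lies at the lower edge of that bin, at Flox percentile 90.21, and the medians of the next dimmer bin were -0.02, -0.47 and -0.38. How close together the 3 arrays stand therefore depends on the bin.

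*Mup3* belongs to the major urinary proteins, which bind pheromones and are secreted by male liver in large amounts. Its probe set 101910_f_at read 14.03, 12.77 and 12.82 on the LIRKO arrays and 14.15, 14.25 and 14.23 on the Flox arrays. Its probe set 101909_f_at read 13.84, 12.18 and 12.55 on the LIRKO arrays and 14.09, 14.02 and 14.07 on the Flox arrays. Both lie at the top of the range of all probe sets, at Flox percentiles 99.98 and 99.94, and both probe sets are of the _f_at kind, so that *Mup3* cannot be told apart from its relatives. The differences were -0.999 (standard error 0.33) and -1.20 (standard error 0.40), each with an adjusted p of 0.237 from limma, and by array they were -0.17, -1.43 and -1.39 on 101910_f_at and -0.22, -1.88 and -1.50 on 101909_f_at. Relative to the brightest bin these became -0.16, -0.35 and -0.50, and -0.20, -0.80 and -0.61. After cyclic loess the sign of 101910_f_at turned, to 0.16 (adjusted p = 0.618 from limma), and 101909_f_at stood at -0.08 (adjusted p = 0.711 from limma). *Mup5*, read by another _f_at probe set, had a difference of -0.71 and stood at -0.23 on LIRKO 1.

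*Elovl3*, which encodes an elongase of very long chain fatty acids, was the only member outside the bright range apart from *Bcl6*, at Flox percentile 38.96. It read 5.43, 5.62 and 5.44 on the LIRKO arrays and 6.24, 6.09 and 5.86 on the Flox arrays, with no overlap. In contrast to the other 13 probe sets, LIRKO 1 was not the highest LIRKO array for *Elovl3*. The difference was -0.57 (standard error 0.14, adjusted p = 0.237 from limma), and the 3 LIRKO arrays stood close together at -0.63, -0.45 and -0.63, while the medians of its bin were -0.02, 0.16 and 0.09. On LIRKO 1, 0 of the 1242 probe sets of that bin had a lower difference, but 115 did on LIRKO 2, 60 on LIRKO 3 and 30 by the mean. *Car3*, the cytosolic carbonic anhydrase III, read 11.92, 9.45 and 10.10 on the LIRKO arrays and 12.16, 12.06 and 12.43 on the Flox arrays. Its difference was -1.73 (standard error 0.58, adjusted p = 0.237 from limma), but LIRKO 1 lay only 0.14 below the lowest Flox array, at a difference of -0.30, while LIRKO 2 and LIRKO 3 stood at -2.76 and -2.12. Relative to the brightest bin *Car3* stood at -0.28, -1.68 and -1.23.

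**Figure D2:**
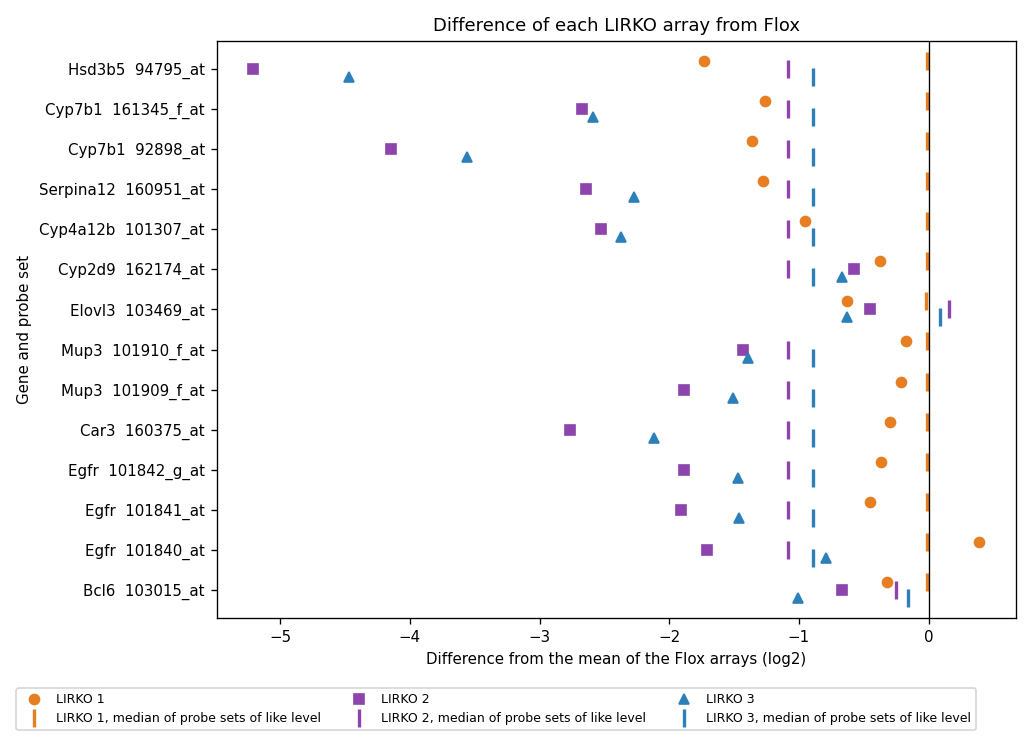
Log2 difference of LIRKO 1, LIRKO 2 and LIRKO 3 from the Flox mean (horizontal axis) for each of the 14 probe sets (vertical axis); points are the probe set itself, and vertical ticks are the median of all probe sets in the same bin by Flox level. Points of *Hsd3b5*, *Cyp7b1*, *Serpina12* and *Cyp4a12b* lie left of their ticks on all 3 arrays, by 1.72, 4.12 and 3.58 for *Hsd3b5*, and those of *Cyp2d9* lie right of them on LIRKO 2 and LIRKO 3.

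Of the signalling genes, *Egfr*, the receptor for epidermal growth factor, was read by 3 probe sets that did not give the same picture. On 101842_g_at it read 10.75, 9.22 and 9.65 on the LIRKO arrays and 11.23, 11.07 and 11.04 on the Flox arrays. On 101841_at it read 9.62, 8.16 and 8.61 on the LIRKO arrays and 10.35, 9.73 and 10.11 on the Flox arrays. These 2 probe sets share a source sequence in the annotation and had no overlap between the groups, with differences of -1.24 and -1.27 (adjusted p = 0.237 from limma for both). On the third, 101840_at, it read 9.76, 7.66 and 8.57 on the LIRKO arrays and 9.21, 9.47 and 9.42 on the Flox arrays. There the groups overlapped, with LIRKO 1 as the highest of all 6 arrays, a place above all Flox arrays that it took for 24.7% of all probe sets, and the difference was -0.70 (standard error 0.48, adjusted p = 0.376 from limma). On LIRKO 1 the 3 probe sets stood at -0.37, -0.45 and 0.39, so that the direction for *Egfr* on that array depends on the probe set. On LIRKO 2 they stood at -1.89, -1.91 and -1.71, and on LIRKO 3 at -1.47, -1.46 and -0.79. Relative to the brightest bin 101842_g_at stood at -0.35, -0.80 and -0.58, 101841_at at -0.44, -0.82 and -0.57, and 101840_at at 0.41, -0.62 and 0.10 on LIRKO 1, LIRKO 2 and LIRKO 3.

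*Bcl6* encodes a transcriptional repressor that binds many of the DNA sites that STAT5 binds. It read 7.65, 7.30 and 6.96 on the LIRKO arrays and 7.73, 8.26 and 7.92 on the Flox arrays. All LIRKO arrays lay below all Flox arrays, by 0.08 at the closest pair. The difference was -0.66 (standard error 0.22, adjusted p = 0.237 from limma), and by array it was -0.32, -0.67 and -1.01, where the medians of its bin were -0.01, -0.25 and -0.16.

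Promoter sequences were read from RefSeq (GRCm38.p6) as windows of 250 bases before to 50 bases after each annotated start. Of the 10 genes, 6 were matched, with 7 windows, and *Cyp7b1*, *Cyp4a12b*, *Elovl3* and *Car3* were not matched. The motif of STAT5, TTCNNNGAA, which reads the same on both strands, was found in both windows of *Bcl6* and in no window of *Hsd3b5*, *Serpina12*, *Cyp2d9*, *Mup3* or *Egfr*. It was found in 8.30% of all 32851 windows. The window at the inner start of *Bcl6* held 3 matches, which do not overlap, and 0.0335% of all windows held 3 or more. The part of both *Bcl6* windows that holds the matches is shown for these sites, and the 120 bases before the start of *Hsd3b5* and *Serpina12* are shown because these genes had large differences on all 3 LIRKO arrays. Capitals mark the motif, and all 4 lie on the minus strand and are written 5′ to 3′ on that strand. The first is at chr16:23981351-23981463, the second at chr16:23988950-23988982, the third at chr3:98645535-98645654 and the fourth at chr12:104044444-104044563.
Bcl6 inner start: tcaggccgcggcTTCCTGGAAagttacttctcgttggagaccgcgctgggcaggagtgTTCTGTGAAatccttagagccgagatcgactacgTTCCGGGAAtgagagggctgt
Bcl6 outer start: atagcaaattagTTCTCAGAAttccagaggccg
Hsd3b5: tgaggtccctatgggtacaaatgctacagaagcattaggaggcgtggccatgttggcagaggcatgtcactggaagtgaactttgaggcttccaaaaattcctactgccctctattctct
Serpina12: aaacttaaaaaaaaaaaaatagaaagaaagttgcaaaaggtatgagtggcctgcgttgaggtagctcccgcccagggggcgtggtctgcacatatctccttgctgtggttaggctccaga
The matches at the inner start of *Bcl6* begin 168, 122 and 88 bases before it, and the one at the outer start begins 118 bases before it. These are matches of letters and not measured sites, and no binding was measured here.

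Because LIRKO 1 lacks the shift in bright probe sets, it was also compared alone with the 3 Flox arrays. A single LIRKO array holds no spread between LIRKO pools, so only the size of each difference is given. That spread need not match Flox: the SD of the 3 LIRKO and 3 Flox arrays was 1.83 and 0.24 for *Hsd3b5*. For *Cyp2d9* it was 0.15 and 0.22, and for *Elovl3* 0.10 and 0.19. On LIRKO 1 *Hsd3b5* stood at -1.73, and *Cyp7b1* at -1.36 on 92898_at and -1.26 on 161345_f_at. *Cyp4a12b* stood at -0.95, *Serpina12* at -1.28 and *Elovl3* at -0.63, and the other 8 at -0.45 to 0.39. With LIRKO 1 left out instead, all 14 passed as lower, but so did 26.7% of all probe sets and 79.4% of those in the brightest bin. In the test of all 6 arrays, the intervals of *Hsd3b5*, of -5.76 to -1.85, and *Elovl3*, of -0.90 to -0.24, were apart, whereas those of *Hsd3b5*, *Cyp7b1*, *Serpina12* and *Cyp4a12b* overlapped each other. These intervals take the spread of both groups as equal. With unequal variances the standard error of *Hsd3b5* was 1.07. The bins of *Hsd3b5* and *Elovl3* also differed, with medians of -0.65 and 0.08.

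**Figure D3:**
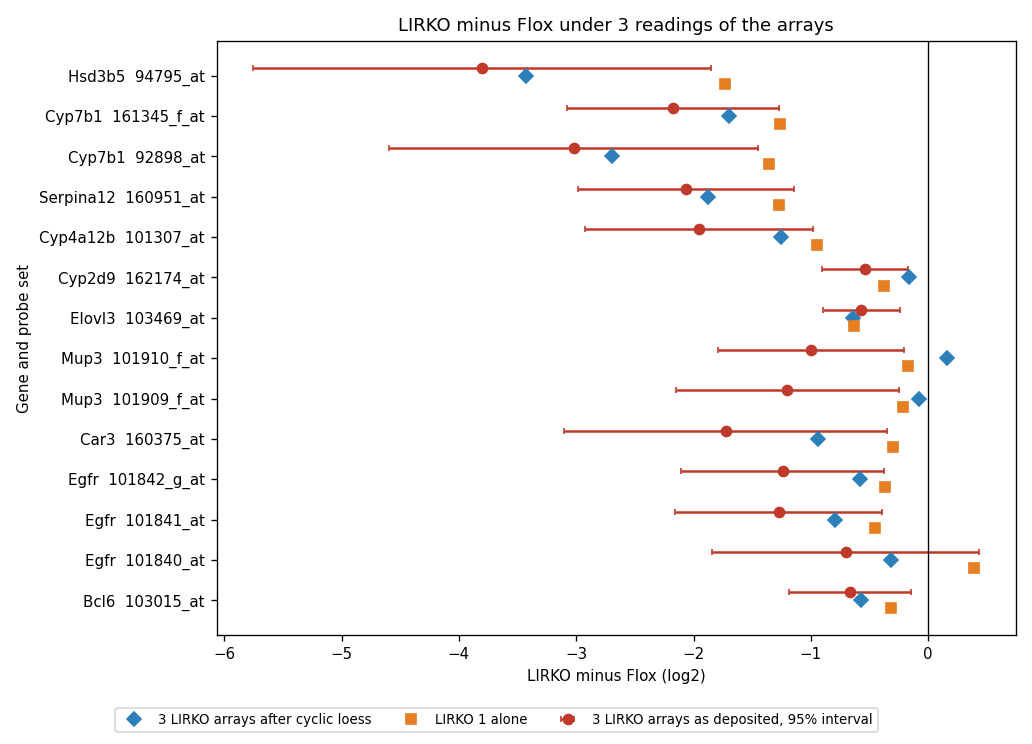
LIRKO minus Flox (log2, horizontal axis) of the 14 probe sets for the 3 LIRKO arrays as deposited (circles, with 95% intervals from limma), after cyclic loess between arrays (diamonds) and for LIRKO 1 alone (squares). *Hsd3b5* lies at -3.80, -3.43 and -1.73 in the 3 readings, while 101910_f_at of *Mup3* lies at -0.999, 0.16 and -0.17.

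Around these genes, the wider set of pulse-related genes was read by 1 probe set each, the one with the highest mean. Among the other male-biased genes, *Mup5*, *Cyp2d10* and *Hsd3b2* are relatives of members already given above. All 10 measured genes of 29 other male-biased ones had a lower mean on the LIRKO arrays, with a median of -0.87 against 0.01 over all probe sets. But 8 of the 10 lie in the brightest bin, where 87.7% of probe sets were lower and the median was -0.65, and relative to its own bin 9 of 10 were lower, with a median of -0.43. After cyclic loess 6 of 10 were below 0, with a median of -0.18. None passed, and 8 of 10 were below Flox on LIRKO 1. At an unadjusted p under 0.05 in limma 7 of 10 were lower, beside 13.5% of all probe sets, and 6 of the 8 in the brightest bin, beside 43.2%. *Gna14*, a G protein subunit, read 4.28, 4.08 and 3.99 on the LIRKO arrays and 5.27, 4.74 and 5.13 on the Flox arrays, a difference of -0.93. *Alas2*, an aminolevulinate synthase of heme synthesis, had a difference of -1.79, and *Gstp1*, a glutathione transferase, one of -1.36 (adjusted p = 0.237 from limma for all 3). After cyclic loess these 3 stood at -1.03, -1.41 and -0.30, and on LIRKO 1 at -0.76, -0.92 and -0.55.

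Of 13 measured genes of 26 female-biased ones, 12 had a higher mean on the LIRKO arrays, with a median of 0.59, and on LIRKO 1 all 13 lay above the Flox mean, with a median of 0.72. The groups were apart as higher for 11 of 13, against 9.84% of all probe sets, and 9 of 13 were higher at an unadjusted p under 0.05 in limma, against 7.43%. Relative to its own bin 12 of 13 were higher, with a median of 0.65. *Cyp2b9*, a cytochrome P450 of female liver, rose, with a log2 difference of 3.51 (standard error 0.36, adjusted p = 0.0384 from limma), the only one to pass, where 0.0725% of all probe sets passed as higher. It read 10.49, 8.96 and 9.46 on the LIRKO arrays and 6.16, 6.21 and 6.02 on the Flox arrays, with LIRKO 1 farthest from Flox. It passed without LIRKO 1, and with any other array left out it did not (adjusted p from 0.0695 to 0.295 from limma). *Cyp2b10* and *Cyp2b13*, of the same family, had differences of 2.01 (adjusted p = 0.0548 from limma) and 1.10 (adjusted p = 0.0665 from limma). The 13 female-biased genes lie at a median Flox percentile of 34.62, below the bright range in which most of the pulse-dependent genes lie. The dimmest, at percentiles 1.75 and 2.54, stood at 0.38 and 0.05 relative to their bin.

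In the pathway that carries the pulse, 20 of 22 listed genes were measured, of which 8 were above and 12 below 0, with a median of -0.21. None passed in limma, and at an unadjusted p under 0.05, 5 of 20 were lower, beside 13.5% of all probe sets, and 1 was higher, beside 7.43%. In the brightest bin, which holds *Igfals*, *Ghr* and *Igf1*, 3 of 5 were lower at that p, beside 43.2%. *Igfals*, which encodes the acid-labile subunit that holds IGF-1 in the blood, had a difference of -1.86, *Ghr*, the growth hormone receptor, one of -1.95, and *Igf1*, its main endocrine product, one of -1.91 (adjusted p = 0.237 from limma for all 3). On LIRKO 1 they stood at -0.93, -0.59 and -0.31. On that array *Socs2* stood at 1.74. In the fit of LIRKO 1 alone, 0.282% of all probe sets passed as lower and 0.443% as higher. That fit holds no spread between LIRKO pools, so no call of a gene is taken from it. *Stat5b* and *Jak2* had differences of -0.26 and 0.23, and *Socs2*, which STAT5 induces and which restrains the receptor, had one of 1.15 (adjusted p = 0.237 from limma). *Socs2* was chosen for mention, with *Stat5b* and *Jak2*, after its value was seen.

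**Figure D4:**
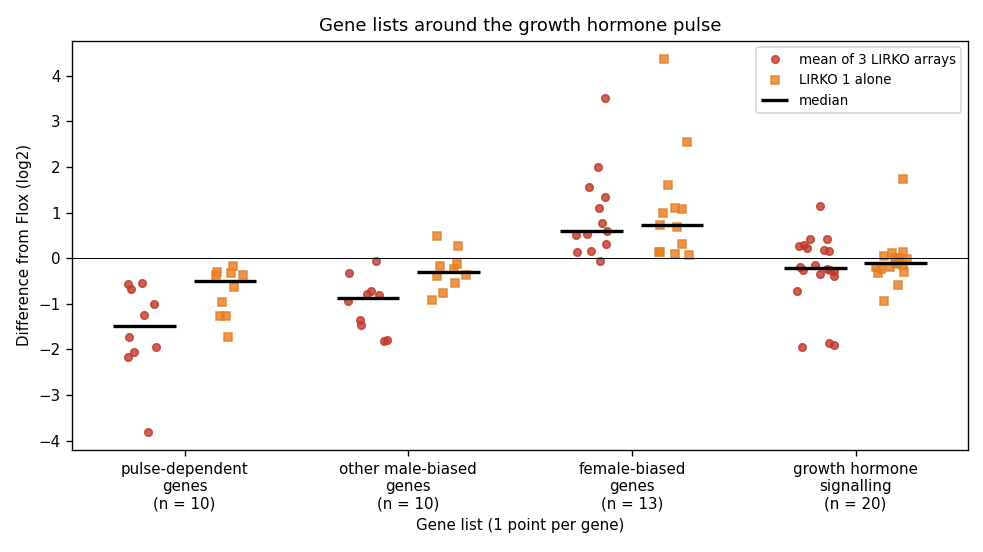
Log2 difference from the Flox mean (vertical axis), a point per measured gene, with the 4 lists side by side (horizontal axis); circles are the mean of the 3 LIRKO arrays, squares show LIRKO 1 by itself, and the medians are drawn as black bars. The 10 pulse-dependent genes have a median of -1.48 over the 3 arrays and -0.50 on LIRKO 1, against 0.59 and 0.72 for the female-biased genes.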

How the data were processed

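Liver RNA of 3 LIRKO and 3 Flox pools was hybridized to Affymetrix arrays. Background correction, normalization and summary by RMA were done by the authors with affy and limma, and the deposited values are log2 signals, a value for each probe set on each array. Versions, and whether all 6 arrays were normalized together, are not given in the sources used here. Values were used as deposited. Without the 66 array controls, 12422 probe sets remained, and all entered the test.

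Differences are LIRKO minus Flox, tested in limma 3.58.1 in R 4.3.3 (lmFit and eBayes, two-sided), with Benjamini-Hochberg adjustment over all probe sets and a threshold of 0.05, as the methods state. Symbols came from the platform annotation, looked up by Entrez ID (10817 of 10833 probe sets with 1 symbol were found). Since each array is a pool, p-values measure the spread between pools only. Bins are 10 equal groups of probe sets by mean Flox level. The genes and lists were chosen with earlier results of these data known. Named are all members, their relatives on the array, and in each other list the genes that passed or, where fewer than 3 did, up to 3 with the smallest p. Alternatives were 3 scalings, a filter, another variance model, the methods' t-test, a replicate block, probe sets averaged per gene, leaving out each array and LIRKO 1 alone. In a simulation of 3 against 3 arrays, with 200 of 12422 probe sets changed, limma made 178 calls, of which 9 were false. Changes of 1, 2 and 4 on the log2 scale were recovered in 62.7%, 91.0% and 100% of cases. Noise was drawn independently for each probe set, without the shift of bright probe sets on LIRKO 2 and LIRKO 3. The simulated share of false calls therefore does not carry over to these arrays. Figures used matplotlib 3.10.9 in Python 3.11.15.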

Additional observations from a re-analysis of the deposited data

Results flagged for a closer look

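Control transcripts of the array, which no comparison above uses, had a higher median on LIRKO 2 and LIRKO 3 than on any Flox array. Over 9 control probe sets, the median difference from the Flox mean was 1.08 on LIRKO 2 and 0.962 on LIRKO 3, against -0.248 on LIRKO 1 and -0.233 to 0.177 on the Flox arrays. These are the 2 LIRKO arrays on which bright probe sets, 12 of the 14 described here among them, read lower. The part of this in the differences of *Hsd3b5*, *Cyp7b1* and the other members was not tested.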

How the results depend on the processing

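Over all probe sets 16 passed as deposited, and 23 after quantile normalization, 40 after cyclic loess, 0 with the methods' t-test once adjusted (728 at an unadjusted p under 0.05), 11 with the replicate block, 90 with LIRKO 1 alone and 2 (without LIRKO 2) to 6095 (without LIRKO 1) with 1 array left out. Of the 14 member probe sets 0 passed as deposited, 1 after cyclic loess and 0 to 14 (without LIRKO 1) with 1 array left out. Under the other 6 settings that used all 6 arrays 0 passed, and the replicate block gave a lowest adjusted p of 0.115 from limma. Among the members 2 signs turned: *Mup3* 101910_f_at read 0.16 after cyclic loess and *Egfr* 101840_at read 0.39 on LIRKO 1 alone. Of the other male-biased genes 0 to 8 passed with 1 array left out, and of the signalling genes 0 to 12. The 1 female-biased gene that passed became 2 after quantile normalization and with probe sets above the median level. The count was 3 after cyclic loess, with another variance model and with probe sets averaged per gene. It was 0 with the methods' t-test and with the replicate block, and 0 to 8 with 1 array left out. *Cyp2b9* did not pass without LIRKO 2, LIRKO 3 or any of the Flox arrays. Deviations on arrays of the same replicate number correlated at 0.32, 0.40 and 0.09 over probe sets, not every array correlated best with its own number, and the numbers were not taken as pairs. The cause of these changes was not tested. *Elovl3* has no value under the filter on dim probe sets, and signal over background was not analysed here.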
